A study of Mus musculus with 70 samples.

Results

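Kidney-to-Lung Metastasis (K-LM) cell lines of the third in vivo passage (P3) were compared with K-LM lines of the sixth passage (P6) on single-colour Agilent mouse arrays. The samples were chosen by their titles in the labels and by no measured value, which gave 5 P3 samples (replicates 1 to 5) and 3 P6 samples (replicates 1 to 3), or 8 of the 65 RNA samples in the series. RENCA is a mouse renal adenocarcinoma line, here stably expressing green fluorescent protein (GFP), and its parental cells are called P0. For every K-LM passage, GFP-RENCA cells were placed beneath the capsule of the left kidney of wild type female BALB/c mice, 6 weeks old, and lung metastases were collected, digested and cultured for about 2 weeks until no GFP-negative cells were seen. The recovered cells were then returned to the kidney of new mice. Both groups therefore carry GFP and share the route, and they differ in the number of passages and in the array slide. In the 2 other routes of the study, cells were recovered from kidney tumours (KPT) or were given by the tail vein and recovered from the lung (T-LM). No cloning step is described for the K-LM lines, and no source used here states which P3 line, if any, a P6 line came from. The study describes RNA from the cultured lines, whereas the labels name lung metastases as the source and a tissue homogeniser for the extraction. The labels number the replicates but do not say whether they come from separate mice, so p-values measure only the spread between these samples. In bulk RNA of this kind, fewer cells of a type and less RNA per cell cannot be told apart.

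The acute phase response is the release of plasma proteins such as serum amyloid A, haptoglobin and alpha-1-antichymotrypsin-like serpins during inflammation, mainly by the liver and also by other epithelia and tumour cells. Cytokines of the interleukin-6 family start it through receptors that share the subunit gp130, the kinases JAK1 and JAK2 and the transcription factor STAT3, and Socs3, a target of STAT3, shuts the receptors off again. Complement is a cascade of plasma proteases and opsonins that several of the same cytokines also raise, and the extracellular matrix around tumour cells is built from collagens, laminins and glycoproteins.

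The comparison rests on 1 correction. All 3 P6 arrays lay on a late slide that was scanned with another version of the scanner software, whereas the 5 P3 arrays lay on earlier slides, so that slide, scan and software cannot be told apart. RNA of 5 samples (P0 replicates 1 and 2, KPT P6 replicates 1, 2 and 4) had been hybridised on both array sets, and their 10 arrays gave the late slide term that was subtracted. Between the arrays of 1 RNA the levels differed by a median of 0.147 (log2, absolute value), and limma called 7 of 20775 probes at an adjusted p of 0.01 or less, with 4746 at an unadjusted p under 0.05. Levels throughout are log2 signals relative to the 75th percentile of the array, and a level of 1 probe cannot be set against that of another. Dim probes read lower on the late slide. For the 13 named genes that were nowhere above background in the repeated RNA, the late minus earlier difference was -0.97 to -0.35 (median -0.53), against a median of 0.03 for the 56 named genes above background on all 10 arrays. Subtracting the term thus enlarges the fitted rise of a dim gene, and values without it are given where this matters.

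The arrays differed in quality as well. Probes well above background made up 27.5% to 33.8% of all probes in P3 and 34.4% to 35.0% in P6. An index of transcript length was taken as the mean level of 25 long mRNAs minus the mean level of 72 ribosomal protein mRNAs, since long mRNAs are lost first when RNA is degraded. It was -8.66, -8.44, -8.04, -9.95 and -9.60 in P3 replicates 1 to 5 and -7.30, -7.36 and -7.28 in the P6 replicates, so that every P6 sample was above every P3 sample. At P4 it was -7.36 to -6.99 and at P5 -9.67 to -8.83, and on the late slide it was higher than on the earlier slides for each of the 5 repeated RNA samples. Its part in the results was not tested. With the index as a covariate 107 probes were called, of which 104 were among the main calls, and the number of calls in this fit is given beside each gene group with a call.

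**Figure D1:**
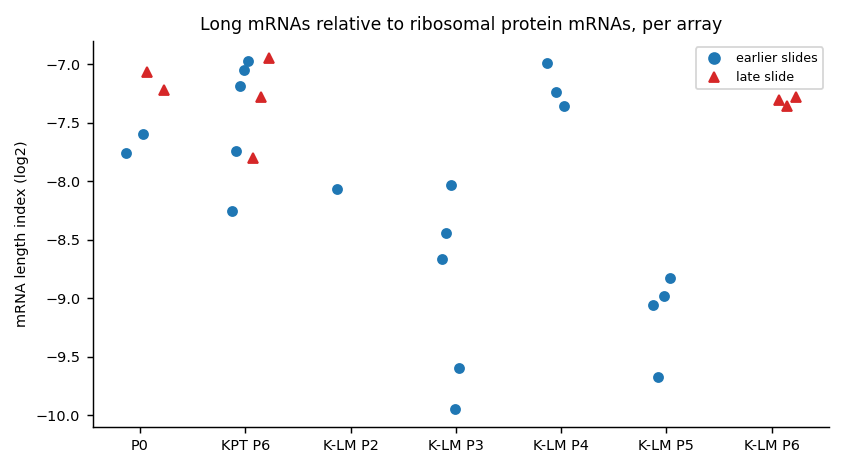
Index of transcript length (mean log2 level of long mRNAs minus that of ribosomal protein mRNAs, y axis) for each array of P0, K-LM P2 to P6 and KPT P6 (x axis). Circles are arrays on the earlier slides and triangles arrays on the late slide; the 3 K-LM P6 arrays lie between -7.36 and -7.28, above all 5 P3 arrays.

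From P3 to P6, 778 of 22331 probes (3.48%) passed limma's test. Higher levels at P6 accounted for 561 of them (2.51% of those tested) and lower levels for 217 (0.972%), and 209 rises and 38 falls reached 2 or more on the log2 scale. With 1 probe for each gene, the brightest, 414 of 12268 genes were higher (3.37%) and 107 lower (0.872%), and the median change of all of them was 0.18. Counts for the gene lists below stand against these shares. The P3 and P6 samples did not overlap in 514 of these 521 called genes and overlapped in 7. A lack of overlap, given below for single genes, therefore adds little to a call. The share of called probes that were higher was 72.1%, but 53.9% with the percentile taken over all probes, 60.8% after normexp and quantile normalization and 60.5% with the deposited values. The count depended on single samples. It was 1851 without P3 replicate 3 and 396 without P3 replicate 5, and 224, 223 and 289 without P6 replicate 1, 2 or 3. Without KPT P6 replicate 1 or 2 it was 434 or 449, and without P0 replicate 1 or 2 it was 503 or 470. In the same fit 2773 probes (12.4%) were called from P3 to P4 and 654 (2.93%) from P3 to P5, against the same P3 samples and on earlier slides only. For P3 to P6, leaving out P3 replicates 4 and 5 together, which had the lowest index, gave 283.

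Of the acute phase proteins, 14 of 18 tested genes rose from P3 to P6 and none fell, with a median change of 3.03. The genes that rose were Serpina3n, Serpina3m, Serpina3c, Serpina3f and Serpina3i, which encode secreted serpins related to human alpha-1-antichymotrypsin, the serum amyloid A genes Saa1, Saa2 and Saa3, and Hp, Orm2, Lrg1, Cp, Lbp and Steap4. With the index as a covariate 8 of them were called, with a median over the list of 3.02. Another 7 listed genes on the array were too dim to test, among them Crp, Hpx, Fga and Saa4. Probes for the Serpina3 and Saa genes may read close relatives, so these members are not independent measurements. Saa1, Saa2 and Lrg1 stand in the K-LM signature that the study chose on these samples, as does human SERPINA3. So do Cfb, Socs3, Bcl3 and Col6a1 of the lists below, and none of these rises is independent evidence.

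Serpina3n had one of the large rises. Its level, in the order of the replicates here and below, was -8.20, -7.49, -8.42, -8.05 and -8.29 in P3 replicates 1 to 5 and -1.95, -1.11 and -1.41 in P6 replicates 1 to 3. The fitted change was 6.82 ± 0.62 (SE, adjusted p = 6.67e-07), and since no P3 array was well above background the rise is best given as at least 34.6-fold. The 2 groups lay far apart, and all P3 samples were near the level of dim probes. Serpina3m read -8.85, -8.82, -9.27, -8.42 and -8.73 at P3 and -3.13, -2.41 and -3.42 at P6, a rise of at least 12.3-fold (adjusted p = 7.57e-12). Its fitted change was 6.75 with the late slide term and 5.83 without it. Serpina3c likewise went from -8.30, -7.69, -8.62, -8.33 and -8.03 to -4.13, -3.48 and -4.37, at least 6.11-fold (adjusted p = 3.08e-07). Serpina3n had changed by 1.55 (adjusted p = 0.0427) at P4 and by 2.67 (adjusted p = 0.00275) at P5. The rises of Serpina3m and Serpina3c were called at neither passage. Serpina3m changed by -0.32 (adjusted p = 0.410) from P3 to P4 and by 0.13 (adjusted p = 0.841) from P3 to P5, and Serpina3c by -0.40 (adjusted p = 0.410) and -0.24 (adjusted p = 0.741), in the same fit.

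Serpina3f and Serpina3i were well above background in every sample and so give a fold directly. Serpina3f rose from -1.44, -1.76, -1.13, -1.96 and -2.51 to 1.44, 1.71 and 1.76, a change of 3.23 ± 0.41 (SE, adjusted p = 3.27e-05) or 9.4-fold. Serpina3i rose from -4.91, -4.10, -4.47, -4.22 and -4.70 to -1.51, -1.09 and -1.32, a change of 3.10 ± 0.39 (SE, adjusted p = 3.52e-05) or 8.55-fold. For both genes the lowest P6 sample was above the highest P3 sample by more than the spread within either group.

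Among the serum amyloid A genes, which encode lipoprotein-bound acute phase proteins, Saa2 was well above background in none of the P3 samples and in all P6 samples. Its levels were -8.58, -8.53, -8.00, -8.23 and -7.63 at P3 and -4.61, -4.12 and -4.25 at P6, at least 4.85-fold higher (adjusted p = 4.14e-05). Saa3 rose from -2.40, -1.93, -0.70, -1.35 and -1.65 to 0.97, 0.99 and 1.85, by 2.96 ± 0.50 (SE, adjusted p = 0.000887), and Saa1 from -4.38, -3.72, -2.89, -3.37 and -4.07 to -1.34, -1.19 and -0.55, by 2.76 ± 0.53 (SE, adjusted p = 0.00258). Neither range overlapped. These genes were higher before P6, since Saa3 had changed by 3.93 (adjusted p = 6.02e-05) at P4 and 4.15 (adjusted p = 6.5e-06) at P5, and Saa1 by 3.75 (adjusted p = 8.34e-05) and 4.00 (adjusted p = 1.4e-05). With the index as a covariate Saa2 kept an adjusted p of 0.00120, while those of Saa1 and Saa3 were 0.0538 and 0.0191.

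Lrg1 encodes a secreted leucine-rich glycoprotein known from inflamed tissue and vessels. It read -5.56, -5.58, -5.58, -6.21 and -5.99 at P3 and -1.94, -1.26 and -1.62 at P6, and the change of 4.19 ± 0.45 (SE, adjusted p = 5.78e-06) amounted to 18.3-fold. Steap4, a membrane metalloreductase, was not above background at P3 (-8.67, -8.82, -9.08, -8.09 and -8.32) and was at P6 (-4.52, -4.17 and -4.02), at least 5.17-fold (adjusted p = 7.94e-06). The same held for Hp, which encodes the haemoglobin-binding protein haptoglobin and was at least 3.38-fold higher (adjusted p = 0.000653). Smaller rises were those of Orm2, an orosomucoid (1.86 ± 0.41, SE, adjusted p = 0.00622), of Lbp, which binds bacterial lipopolysaccharide (1.80 ± 0.30, SE, adjusted p = 0.000747), and of the copper carrier Cp (1.47 ± 0.28, SE, adjusted p = 0.00263). For all of them the P3 and P6 samples did not overlap. The 4 tested genes without a call were Lcn2 with a change of 1.26 (adjusted p = 0.0195), Orm1 with 1.63 (adjusted p = 0.0105), Itih4 with 0.04 (adjusted p = 0.966) and Serpina1a with -1.04 (adjusted p = 0.0472).

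**Figure D2:**
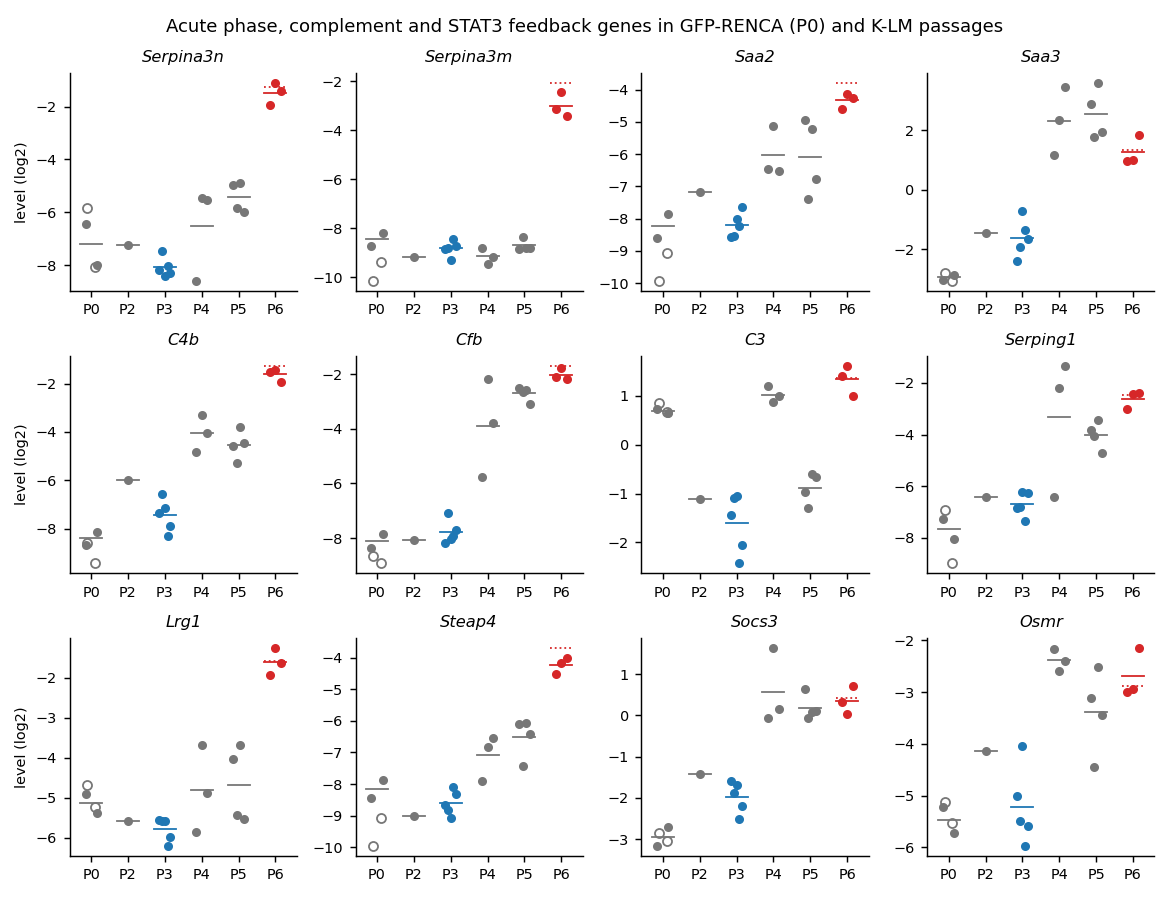
Levels (log2 signal relative to the 75th percentile of the array, y axis) of 12 acute phase, complement and STAT3 feedback genes in each sample of P0 and K-LM P2 to P6 (x axis). Blue marks P3 and red P6, and short horizontal lines are the means of each passage. Open circles are the repeat arrays of P0 on the late slide, and the dotted red line is the P6 mean after the late slide difference was subtracted. Serpina3m reads high only at P6, whereas Saa3 and Socs3 are above the P3 level from P4 on.

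Promoters of the called acute phase, complement and STAT3 feedback genes were searched for 3 motifs on both strands, from 250 bases before to 50 bases after the annotated start. The letters were TTCNNNGAA for STAT factors, TTGCGCAA for C/EBP and GGGANNTTC for NF-kB. RefSeq windows (GRCm38.p6) were at hand for 21 of the 28 genes considered. The STAT letters stood in 6 of the 21 genes (28.6%), against 8.30% of all 32851 windows. The C/EBP letters stood in 1 gene (4.76%, against 0.183%) and the NF-kB letters in none (against 3.94%). A gene was counted if any of its windows matched (Serpina3f and Cp had 2 each), whereas the share over all is per window. Serpina3f and Serpina3i are related genes, as are C1ra and C1rb, so their matches are not independent. These matches are a description of the letters and no sign of binding, and the genes were chosen by their change. The 250 bases before the start are printed for the genes with a match in them, because they show where in the promoter the letters stand. Each is written 5′ to 3′ in the direction of the gene, with the match in capitals. They are Socs3 (chr11:117969367-117969616, minus strand, first base of the match at position -154 from the start), Steap4 (chr5:7960222-7960471, plus strand, position -116), Serpina3f (chr12:104214294-104214543, plus strand, position -121), Serpina3i (chr12:104262872-104263121, plus strand, position -102), C1rb (chr6:124570180-124570429, plus strand, position -119) and, for the C/EBP letters, Orm2 (chr4:63362199-63362448, plus strand, position -120). C1ra had its match after the start, at position 33.
Socs3: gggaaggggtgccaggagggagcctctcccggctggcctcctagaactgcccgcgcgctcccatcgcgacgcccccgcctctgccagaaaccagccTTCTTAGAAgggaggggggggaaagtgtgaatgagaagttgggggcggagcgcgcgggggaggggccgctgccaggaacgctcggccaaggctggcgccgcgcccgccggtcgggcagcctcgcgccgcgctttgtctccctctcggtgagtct
Steap4: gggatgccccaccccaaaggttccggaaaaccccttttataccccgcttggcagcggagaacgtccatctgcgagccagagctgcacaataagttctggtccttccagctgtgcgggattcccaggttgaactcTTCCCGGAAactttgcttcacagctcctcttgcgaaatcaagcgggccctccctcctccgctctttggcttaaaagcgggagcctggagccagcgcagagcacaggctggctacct
Serpina3f: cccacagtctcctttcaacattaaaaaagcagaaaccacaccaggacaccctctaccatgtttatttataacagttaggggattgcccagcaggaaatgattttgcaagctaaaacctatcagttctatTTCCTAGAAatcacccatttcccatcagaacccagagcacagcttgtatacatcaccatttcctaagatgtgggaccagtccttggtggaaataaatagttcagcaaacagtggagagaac
Serpina3i: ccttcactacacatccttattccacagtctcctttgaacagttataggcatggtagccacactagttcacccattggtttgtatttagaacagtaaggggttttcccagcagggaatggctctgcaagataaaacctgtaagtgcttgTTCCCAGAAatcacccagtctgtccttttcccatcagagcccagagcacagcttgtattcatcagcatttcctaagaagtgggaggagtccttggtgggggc
C1rb: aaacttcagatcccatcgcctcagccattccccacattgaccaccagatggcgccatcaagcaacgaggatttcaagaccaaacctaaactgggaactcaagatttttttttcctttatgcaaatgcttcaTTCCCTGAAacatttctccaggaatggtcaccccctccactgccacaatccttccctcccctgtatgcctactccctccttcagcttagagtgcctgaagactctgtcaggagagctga
Orm2: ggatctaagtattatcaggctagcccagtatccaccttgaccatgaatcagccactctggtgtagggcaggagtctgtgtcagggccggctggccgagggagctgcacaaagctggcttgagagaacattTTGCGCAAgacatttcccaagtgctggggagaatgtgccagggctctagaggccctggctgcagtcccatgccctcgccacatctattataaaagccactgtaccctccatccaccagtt

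Complement genes rose as well, with 8 of 15 tested genes higher, 1 lower and a median change of 0.98. The genes that rose were C1ra, C1rb and C1s2 of the C1 complex, C2 and C4b of the classical pathway, Cfb of the alternative pathway, the central component C3 and Serping1, which encodes the C1 inhibitor. With the index as a covariate 3 were called (C4b, Cfb and C3), with a median over the list of 1.01. C4b rose from -7.34, -6.56, -7.16, -8.31 and -7.88 to -1.51, -1.43 and -1.93, a fitted change of 6.19 ± 0.45 (SE, adjusted p = 2.17e-08), though just 1 of the 5 P3 arrays was well above background. Cfb, the protease of the alternative pathway, was not above background on any P3 array (-8.19, -7.07, -8.04, -7.94 and -7.71) and read -2.12, -1.78 and -2.16 at P6, at least 24-fold higher (adjusted p = 3.2e-07). C3, cleaved by both pathways, rose from -1.44, -1.09, -1.05, -2.43 and -2.05 to 1.40, 1.62 and 0.99, by 2.97 ± 0.28 (SE, adjusted p = 1.01e-06), or 7.86-fold. In all 3 genes the groups were separated by more than 1 log2 unit.

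The passages between differed from gene to gene. C4b had changed by 3.40 (adjusted p = 6.75e-05) at P4 and 2.93 (adjusted p = 8.22e-05) at P5 and was higher again at P6, and Cfb by 3.88 (adjusted p = 7.67e-05) and 5.08 (adjusted p = 1.21e-06). C3 had a change of 2.63 (adjusted p = 1.52e-05) at P4 and of 0.73 (adjusted p = 0.0592) at P5. The index was high at P4 and low at P5, and its part in the changes of these 3 genes was not tested. Serping1 rose by 4.23 ± 0.78 (SE, adjusted p = 0.00204), C1rb by 2.08 ± 0.41 (SE, adjusted p = 0.00324) and C2 by 1.41 ± 0.25 (SE, adjusted p = 0.00154). C1ra and C1s2 rose by 1.31 ± 0.30 (SE, adjusted p = 0.00772) and 0.98 ± 0.22 (SE, adjusted p = 0.00817), and the C1ra and C1rb probes may share transcripts. Serping1 was well above background in 2 and C1rb in 1 of the 5 P3 samples. Cd59a, which blocks the membrane attack complex, was the gene that fell, by 1.66 on the log2 scale (adjusted p = 0.00305), from -3.41, -2.52, -3.91, -3.07 and -2.42 to -4.43, -4.62 and -4.63. The inhibitor gene Clu had a change of 0.39 (adjusted p = 0.263).

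Of the interleukin-6 family and its STAT3 feedback, 5 of 19 tested genes rose and none fell, with a median change of 0.65. None of the 5 was called with the index as a covariate, where the median was 0.35. The receptor chains Osmr and Il6ra were among them. Osmr, which binds oncostatin M together with gp130, rose from -5.00, -5.49, -4.04, -5.97 and -5.58 to -3.00, -2.94 and -2.15, by 2.33 ± 0.41 (SE, adjusted p = 0.00128), with an adjusted p of 0.0991 with the index, and Il6ra rose by 1.98 ± 0.43 (SE, adjusted p = 0.00555). Stat3 itself rose by 1.18 ± 0.27 (SE, adjusted p = 0.00819). Socs3, the feedback inhibitor whose promoter is printed above, rose from -1.58, -1.88, -1.69, -2.51 and -2.20 to 0.31, 0.04 and 0.72, a change of 2.39 ± 0.35 (SE, adjusted p = 0.000197) or 5.24-fold (adjusted p = 0.0193 with the index). Bcl3, a nuclear IkB protein, rose by 1.89 ± 0.35 (SE, adjusted p = 0.00221). Socs3 and Bcl3 were already higher at P4, by 2.54 (adjusted p = 7.67e-05) and 2.26 (adjusted p = 0.000173), and at P5, by 2.15 (adjusted p = 0.000122) and 1.50 (adjusted p = 0.00280). The ligand Il6 had a change of 2.57 ± 0.94 (SE, adjusted p = 0.0686), the shared receptor subunit Il6st (gp130) of 0.62 (adjusted p = 0.0652), and the transcription factors Cebpb and Cebpd of 1.04 (adjusted p = 0.0103) and 1.63 (adjusted p = 0.0133).

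Of the chemokines and myeloid growth factors, 1 of 23 tested genes rose and 1 fell, against 3.37% and 0.872% of all genes, with a median change of 0.24. Ccl8, an attractant of monocytes, rose by 2.34 ± 0.53 (SE, adjusted p = 0.00794), from -3.48, -2.78, -2.63, -1.91 and -2.44 to -0.55, -0.16 and -0.33. Cxcl2, an attractant of neutrophils, fell by 1.36 on the log2 scale (adjusted p = 0.00784), from -4.68, -4.02, -3.56, -3.83 and -3.81 to -5.36, -5.44 and -5.01, after a change of 0.96 (adjusted p = 0.0141) at P4 and 1.10 (adjusted p = 0.00970) at P5. Neither was called with the index as a covariate.

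Outside these groups, large rises by rule were those of Zbtb16, Slc10a6, Brinp3, Sema3c and Rspo3. Zbtb16, a zinc finger transcription factor also called PLZF, read -8.07, -8.75, -9.22, -8.03 and -8.73 at P3 and -1.94, -2.18 and -2.72 at P6, at least 20.1-fold higher (adjusted p = 1.01e-09). It had changed by 0.67 (adjusted p = 0.164) at P4 and 1.30 (adjusted p = 0.0173) at P5. Slc10a6, a carrier of sulphated steroids, read -8.89, -7.71, -8.10, -8.36 and -8.04 and then -3.38, -3.40 and -3.62, at least 8.8-fold higher (adjusted p = 1.73e-05). Brinp3 rose by 4.70 ± 0.62 (SE, adjusted p = 6.3e-05), from -8.63, -7.55, -6.59, -7.22 and -7.30 to -3.23, -2.79 and -3.20, with 1 of the 5 P3 samples well above background. All 3 were called with the index. No P3 sample of these 3 genes came within 3 log2 units of a P6 sample.

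Sema3c, a secreted guidance cue, and Rspo3, which potentiates Wnt signalling, were above background at P6 only, at least 5.37-fold (adjusted p = 0.00247) and at least 6.22-fold higher (adjusted p = 0.00185). Both were called before P6. From P3 to P5 the change was 5.25 (adjusted p = 0.000185) for Sema3c and 4.91 (adjusted p = 0.000201) for Rspo3. With the index Sema3c was called (adjusted p = 0.00698) and Rspo3 was not (adjusted p = 0.0398).

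**Figure D3:**
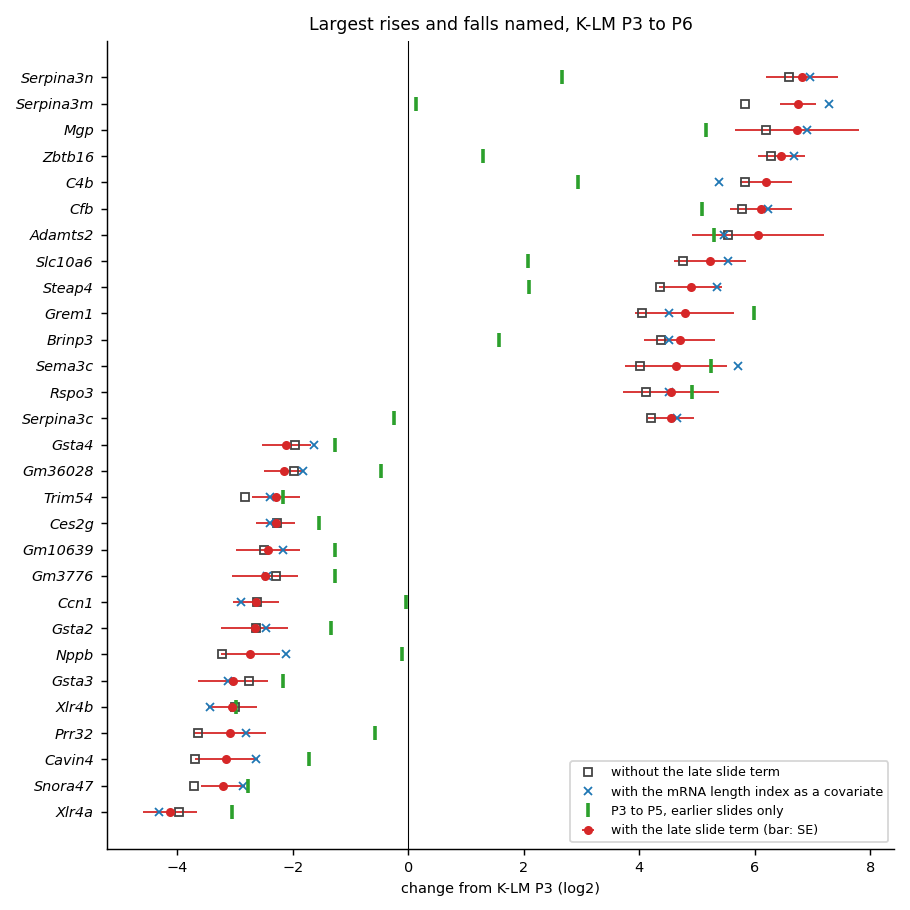
Fitted P3 to P6 change (log2, x axis) of 14 of the 15 largest rises and of the 15 largest falls named by rule (y axis). Points with bars are the change with the late slide term ± SE, squares the change without the term, crosses the change with the index as a covariate and green bars the P3 to P5 change; Serpina3n, Serpina3m and Zbtb16 changed by more than 6, while Ccn1 and Nppb had P5 values near 0.

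Matrix genes rose in several classes, though few of each passed the test. Over all genes the share that rose was 3.37%. In the interstitial collagens 2 of 12 tested genes rose (median 1.94), in the basement membrane list 4 of 21 (median 1.06), in the collagen modifying enzymes 3 of 23 (median 0.51), in the matrix glycoproteins and proteoglycans 7 of 32 (median 1.49) and in the proteases and their inhibitors 3 of 26 (median 0.95). No gene of these lists fell, and none was called with the index as a covariate. Mgp, which encodes matrix Gla protein, an inhibitor of calcification, read -5.95, -8.53, -4.04, -5.00 and -5.48 at P3 and -0.35, 0.01 and 1.53 at P6, a rise of 6.73 ± 1.07 (SE, adjusted p = 0.000495), with an adjusted p of 0.0126 with the index. The P3 samples spread over more than 4 log2 units, and their lack of overlap with P6 was a condition for naming the gene. Adamts2, the procollagen N-proteinase, rose from -7.48, -8.92, -6.09, -8.40 and -8.51 to -3.08, -3.11 and -0.84, by 6.05 ± 1.14 (SE, adjusted p = 0.00233). The BMP antagonist Grem1 rose from -6.55, -7.97, -5.17, -6.77 and -6.97 to -3.51, -2.97 and -1.43, by 4.79 ± 0.86 (SE, adjusted p = 0.00145), and was not called with the index (adjusted p = 0.0461). At P3, Adamts2 and Grem1 were each well above background in 1 of the 5 samples.

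These 3 genes had risen by P4 and P5. Mgp had changed by 6.54 (adjusted p = 0.000217) and 5.15 (adjusted p = 0.00110), Adamts2 by 5.46 (adjusted p = 0.00116) and 5.29 (adjusted p = 0.00147), and Grem1 by 6.01 (adjusted p = 9.49e-05) and 5.99 (adjusted p = 3.6e-05). The collagen VI chains Col6a1 and Col6a3 also rose. Col6a1 was at least 4.71-fold higher (adjusted p = 0.000524), and Col6a3 went from -5.12, -2.06, -3.71, -5.63 and -3.95 to -0.53, -0.86 and -0.88, by 3.61 ± 0.65 (SE, adjusted p = 0.00153). The fibrillar collagens Col1a1 (4.51 ± 1.11, SE, adjusted p = 0.0121) and Col1a2 (3.53 ± 0.86, SE, adjusted p = 0.0118) and fibronectin, Fn1 (3.96 ± 1.02, SE, adjusted p = 0.0152), had large fitted changes with large errors and missed the threshold.

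In the basement membrane, the collagen IV chain Col4a2, well above background in 1 of the 5 P3 samples, rose by 3.53 ± 0.72 (SE, adjusted p = 0.00391) and the laminin chain Lamb2 by 1.63 ± 0.35 (SE, adjusted p = 0.00563), and nidogen, Nid1, was at least 4.39-fold higher (adjusted p = 0.00837). Lama2, another laminin chain, passed the test (adjusted p = 0.00674) but was above background in 1 of the 3 P6 samples, so no fold is given. Of the glycoproteins, Fbn1 (fibrillin) and Postn (periostin) were at least 1.83-fold and 1.78-fold higher, while the fibulins Fbln1 and Fbln2, the fibulin-like Efemp1 and the collagen-binding Aebp1 rose by 1.51 ± 0.21, 1.86 ± 0.43, 1.78 ± 0.37 and 2.12 ± 0.44. The lysyl hydroxylases Plod1 and Plod3 rose by 1.24 ± 0.23 and 1.47 ± 0.31, and the proteases Mmp2, Adamts1 and Adamts4 by 1.97 ± 0.45, 1.58 ± 0.27 and 1.92 ± 0.32. For each of these genes the adjusted p lay between 0.000143 and 0.00886. Their P3 and P6 samples did not overlap, which also held for 514 of all 521 called genes.

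Single receptor genes passed the test in 3 lists, none of which had a call with the index. Over all genes 3.37% were higher, and 1 of 19 in the adhesion list is close to that share. The transforming growth factor beta receptor Tgfbr2 was at least 4.15-fold higher (adjusted p = 0.000495), its co-receptor Eng rose by 1.58 ± 0.34 (SE, adjusted p = 0.00529), and with Grem1 they were the 3 of 21 tested genes of the TGF-beta and BMP list that rose (median 0.50). The integrin chain Itgb4 was the 1 of 19 adhesion genes that rose (1.73 ± 0.39, SE, adjusted p = 0.00726, median of the list 0.90). Growth factor receptors Igf1r and Igf2r rose by 2.36 ± 0.42 (SE, adjusted p = 0.00139) and 1.75 ± 0.35 (SE, adjusted p = 0.00330), 2 of 16 tested genes of the EGF and IGF axis (median 0.56). Their transcripts are long, and with the index their changes were 1.10 (adjusted p = 0.0301) and 0.77 (adjusted p = 0.142). Other receptors of these lists did not pass, among them Tgfbr1 with a change of 0.50 (adjusted p = 0.156), Tgfbr3 with a change of 3.40 (adjusted p = 0.0107), Acvrl1 with a change of 1.02 (adjusted p = 0.247), Egfr with a change of 2.06 (adjusted p = 0.0292) and Insr with a change of 1.21 (adjusted p = 0.0300).

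**Figure D4:**
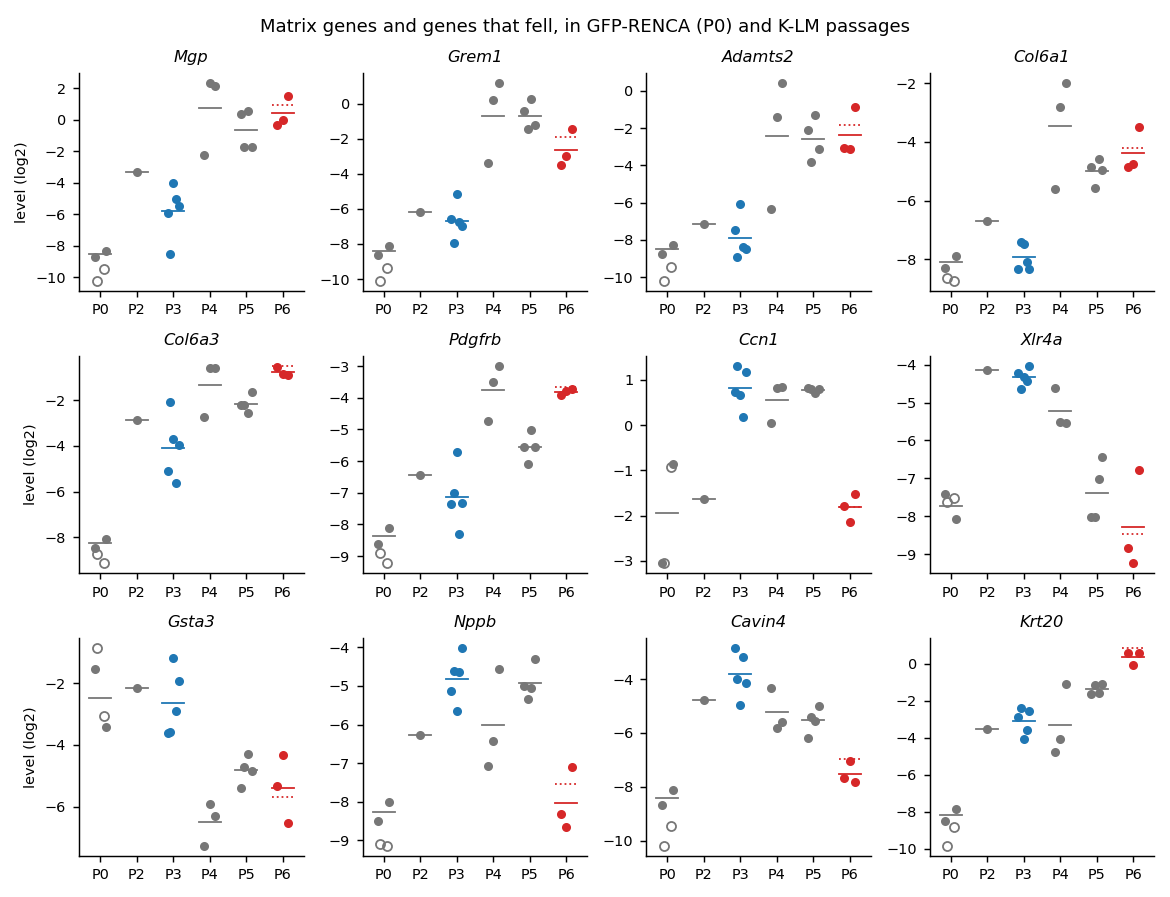
Levels (log2 signal relative to the 75th percentile of the array, y axis) of Mgp, Grem1, Adamts2, Col6a1, Col6a3, Pdgfrb, Ccn1, Xlr4a, Gsta3, Nppb, Cavin4 and Krt20 in each sample of P0 and K-LM P2 to P6 (x axis), with colours and lines as in the plot of acute phase levels. Mgp and Grem1 are high from P4 on, whereas Ccn1 is level to P5 and lower in all 3 P6 samples.

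Epithelial genes rose in part, against a share of 3.37% over all genes. Of the keratins, intermediate filament proteins of epithelia, 3 of 9 tested genes rose (median 1.28), 1 of them with the index. Krt20 went from -2.89, -2.38, -4.09, -3.61 and -2.57 to 0.56, -0.07 and 0.57, by 3.94 ± 0.65 (SE, adjusted p = 0.000707), and kept its call with the index (adjusted p = 0.00652). Krt80 rose by 1.39 ± 0.31 (SE, adjusted p = 0.00724). Krt7 passed the test (adjusted p = 0.00414) without being well above background in any of the 8 samples. The keratins Krt8 and Krt18, above background everywhere, had changes of 0.08 (adjusted p = 0.857) and -0.01 (adjusted p = 0.961). Of the cadherins, tight junction genes and regulators of epithelial-mesenchymal transition, 2 of 20 rose (median 0.81). They were the tight junction genes Cldn1, from -7.42, -6.62, -6.52, -8.34 and -6.04 to -3.54, -3.45 and -3.78 with 2 of the 5 P3 samples well above background (3.20 ± 0.54, SE, adjusted p = 0.000868), and Tjp1 (1.23 ± 0.28, SE, adjusted p = 0.00855), neither of which was called with the index. Cdh1, the epithelial cadherin, was not above background in any sample, and mesenchymal Vim and Cdh2 had changes of 0.84 (adjusted p = 0.0180) and 2.90 (adjusted p = 0.0177).

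Of the genes that interferons induce, 8 of 28 tested rose (median 1.00), 1 of them with the index. Stat2, a transcription factor of type I interferon signalling, rose from -2.72, -2.59, -3.39, -3.23 and -3.37 to -0.58, -0.64 and -0.80, by 2.23 ± 0.25 (SE, adjusted p = 6.27e-06), and was the one called with the index (adjusted p = 0.000604). The 2-5A synthetase genes Oas2 and Oas3 rose by 2.17 ± 0.43 and 2.42 ± 0.43, the guanylate-binding Gbp2 and Gbp3 by 2.21 ± 0.39 and 1.92 ± 0.43, the RNA sensor Ddx58 by 1.55 ± 0.30 and the membrane protein Ifitm3 by 0.82 ± 0.19. Gbp5 was at least 1.11-fold higher (adjusted p = 0.000391). In class I antigen presentation 2 of 19 tested genes rose (median 0.47), against 3.37% of all genes. They were the peptide transporter Tap1 (1.57 ± 0.37, SE, adjusted p = 0.00955) and its loading partner Tapbp (1.31 ± 0.22, SE, adjusted p = 0.000970), and neither was called with the index. The class I heavy chain H2-K1 had a change of 1.00 (adjusted p = 0.0235).

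Of 11 transporters of the ABC and SLC families 4 rose (median 1.44), 2 of them with the index. These 4 also stand in a gene list that the study made from samples of this series and are therefore no independent evidence. Abcb1b, 1 of the 2 mouse genes for the multidrug exporter P-glycoprotein, was not above background at P3 (-8.44, -7.44, -7.40, -7.82 and -6.72) and read -4.32, -4.24 and -4.01 at P6, at least 5.33-fold higher (adjusted p = 0.000309). Its relatives Abcb1a and Abcb4, the latter an exporter of phospholipid, rose by 1.92 ± 0.31 (SE, adjusted p = 0.000532) and 2.53 ± 0.37 (SE, adjusted p = 0.000192). The cholesterol exporter Abcg1 was at least 2.08-fold higher (adjusted p = 0.00204) and was not called with the index. It was also the 1 of 23 genes of cholesterol handling that rose (median 0.00), close to the 3.37% of all genes. From the K-LM signature of the study, likewise chosen on these samples, 14 genes were used. The human genes CYP3A4 and SERPINA3 of that signature have several mouse relatives each and were left out. Of the 14 genes 8 rose and none fell (median 2.50), and 4 were called with the index. Beside Cfb, Lrg1, Saa1, Saa2, Socs3, Bcl3 and Col6a1, these included Pcbp3, an RNA-binding protein, at least 3.14-fold higher (adjusted p = 0.000180).

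Falls were fewer. Xlr4a and Xlr4b, X-linked multi-copy genes of the lymphocyte-regulated family whose probes may read each other, were the 2 of 14 tested genes that fell in their list (median -0.75), and both were called with the index. Xlr4a went from -4.22, -4.63, -4.32, -4.43 and -4.03 at P3 to -8.85, -9.24 and -6.78 at P6, a change of -4.13 ± 0.47 (SE, adjusted p = 9.02e-06), and Xlr4b from -4.07, -4.37, -4.21, -4.75 and -3.76 to -7.48, -8.17 and -6.07, a change of -3.05 ± 0.42 (SE, adjusted p = 0.000121). P6 replicate 3 was the highest of the P6 samples for both genes, and 1 of the 3 P6 samples was well above background for each gene. The P4 and P5 changes were -0.89 (adjusted p = 0.114) and -3.05 (adjusted p = 8.12e-05) for Xlr4a. Ccn1, a matricellular protein that YAP induces, went from 0.73, 1.31, 0.67, 0.17 and 1.18 to -1.78, -2.15 and -1.51, a change of -2.63 ± 0.40 (SE, adjusted p = 0.000304) or 6.2-fold lower (adjusted p = 0.00391 with the index). Its P4 and P5 changes were -0.25 (adjusted p = 0.630) and -0.04 (adjusted p = 0.971).

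Nppb, which encodes brain natriuretic peptide, went from -5.12, -4.62, -5.66, -4.63 and -4.02 to -8.32, -8.65 and -7.11 and was at least 3.79-fold lower (adjusted p = 0.00244), with a P5 change of -0.11 (adjusted p = 0.927), and was not called with the index (adjusted p = 0.113). The glutathione S-transferases Gsta2, Gsta3 and Gsta4 and the related Gm3776 and Gm10639 all fell, and their probes may cross-read. Gsta3 went from -3.60, -3.58, -1.19, -2.91 and -1.91 to -5.32, -4.33 and -6.54 (-3.03 ± 0.60, SE, adjusted p = 0.00341) and Gsta4 from -3.67, -3.93, -2.68, -2.62 and -2.75 to -5.02, -5.08 and -5.16 (-2.11 ± 0.42, SE, adjusted p = 0.00341), while Gsta2, Gm3776 and Gm10639 had changes of -2.66 ± 0.58, -2.48 ± 0.57 and -2.43 ± 0.56 (adjusted p of 0.00628, 0.00887 and 0.00848). They were already lower at P4, where Gsta3 had changed by -3.86 (adjusted p = 0.000172) and Gsta4 by -2.64 (adjusted p = 0.000189). None of the 5 was called with the index.

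The muscle genes Cavin4, a caveolar coat protein, and Trim54, a sarcomeric ubiquitin ligase, were the 2 of 16 skeletal muscle genes that fell (median 0.09), and neither was called with the index (adjusted p of 0.0511 and 0.0196). Cavin4 went from -2.85, -4.01, -4.95, -3.17 and -4.13 to -7.67, -7.05 and -7.82 (-3.15 ± 0.55, SE, adjusted p = 0.00112), with 1 of the 3 P6 samples well above background, and Trim54 was at least 2.31-fold lower (adjusted p = 0.00160). Ces2g, a carboxylesterase, went from -3.35, -3.26, -3.82, -3.86 and -3.54 to -5.60, -6.20 and -5.73 (-2.30 ± 0.33, SE, adjusted p = 0.000197) and was called with the index (adjusted p = 0.00462). The remaining large falls were the small nucleolar RNA Snora47, at least 3.92-fold lower (adjusted p = 1.87e-05), Prr32, at least 1.98-fold lower (adjusted p = 0.00408), and the predicted gene Gm36028 (-2.15 ± 0.35, SE, adjusted p = 0.000650). Of these Snora47 was called with the index (adjusted p = 0.00271), while Prr32 (adjusted p = 0.102) and Gm36028 (adjusted p = 0.0406) were not.

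Other lists held few calls, against 3.37% of all genes higher and 0.872% lower. Of the genes called in them Samsn1 alone was called with the index (adjusted p = 0.00131). In hypoxia and glycolysis 3 of 27 genes rose (median 0.40). They were Samsn1, an adaptor protein, at least 1.39-fold higher (adjusted p = 0.000485), Postn, counted above, and Egln1, the prolyl hydroxylase that marks HIF for VHL (adjusted p = 0.00863), for which no fold is given because its P6 levels did not exceed the bound that background sets at P3. In the kidney lineage transcription factors 1 of 11 rose (median 0.68), Tfcp2l1 of the collecting duct and distal tubule (1.73 ± 0.38, SE, adjusted p = 0.00611), while Pax8 had a change of 0.77 (adjusted p = 0.253) and Wt1 of 2.62 (adjusted p = 0.0155). In the stress response list 1 of 22 fell (median -0.01), the chaperone Dnajb9, by 1.09 on the log2 scale (adjusted p = 0.00831). Of 34 cell cycle genes (median 0.27) and 18 smooth muscle genes (median 0.61) none passed limma's test, and Mki67 had a change of 1.30 (adjusted p = 0.0533). Of 23 long mRNAs 3 rose (Dync1h1, Vps13b and Lrp1, by 1.64 ± 0.37, 1.70 ± 0.39 and 2.09 ± 0.43, median 1.17) and of 72 ribosomal protein mRNAs none was called (median -0.07). Of the 9 stem-like surface markers 1 rose (median 1.26), Eng, counted above.

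**Figure D5:**
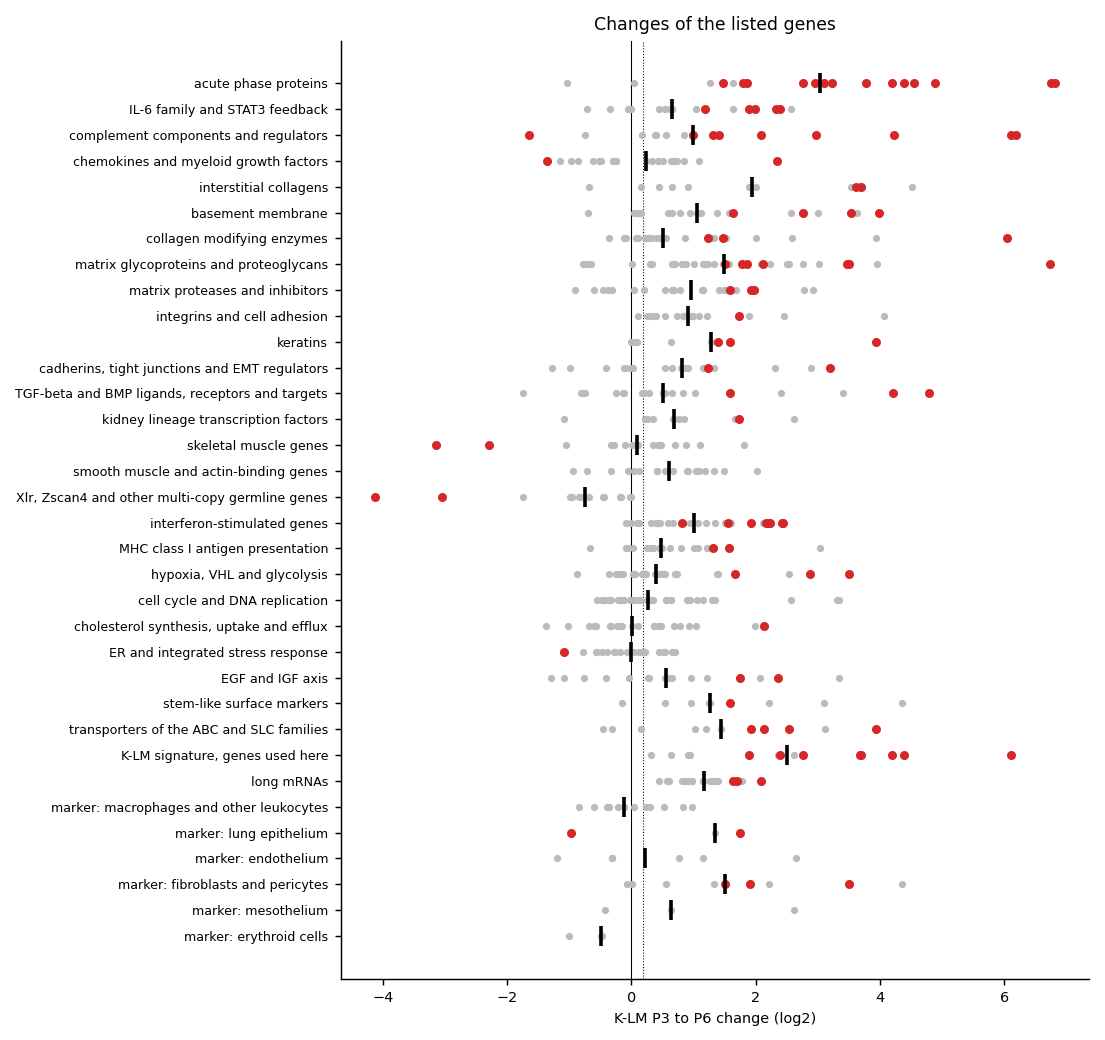
Fitted P3 to P6 change (log2, x axis) of every tested member of each gene list (y axis). Red points passed limma's test, grey points did not, black bars are list medians and the dotted line is the median of all tested genes (0.18); the acute phase list has the median farthest to the right, at 3.03.

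Markers of other cell types were read in the same samples. Leukocyte markers gave no call in 13 tested genes (median -0.12), their summed linear signal was 2.98 to 4.39 in P3 and 2.90 to 3.84 in P6 relative to the 75th percentile, and the defining Ptprc and Adgre1 were not above background in any sample, while Cd68 and Csf1r were above it in all 8 with changes of -0.12 (adjusted p = 0.793) and 0.52 (adjusted p = 0.601). Of the lung epithelium list 3 of 15 genes could be tested. Scgb1a1, of club cells, rose by 1.74 ± 0.35 (SE, adjusted p = 0.00396) and Lamp3 fell by 0.97 on the log2 scale (adjusted p = 0.00538), neither with the index. Abca3, well above background in all 8 samples, had a change of 1.35 (adjusted p = 0.0196). Surfactant Sftpc was at background in all 8 samples, and the sums of the list were 0.65 to 1.05 in P3 and 0.82 to 0.86 in P6. Endothelial markers gave no call in 6 genes, and their sums were lower at P6 without overlap (0.78 to 1.44 in P3, 0.54 to 0.57 in P6). Pecam1 was at background, whereas Kdr, Esam and Egfl7 were well above it in all 8 samples. Their changes were -0.32 (adjusted p = 0.531), -0.32 (adjusted p = 0.435) and -1.20 (adjusted p = 0.0312). Flt1, above background at P6 only, had a change of 2.65 (adjusted p = 0.0211). Changes of Cdh5 and Vwf were 1.16 (adjusted p = 0.304) and 0.76 (adjusted p = 0.100). Mesothelial and erythroid markers gave no call among 3 tested genes each. Fibroblast and pericyte markers rose in part. Of 9 tested genes 3 rose, Pdgfrb, Cspg4 and Fbln1 (median of the list 1.51), none of them with the index, where the median was 1.52. The summed signal was 0.44 to 0.60 in P3 and 1.21 to 1.54 in P6, without overlap. Pdgfrb, the receptor of platelet-derived growth factor BB, went from -7.37, -7.01, -5.71, -8.30 and -7.34 to -3.92, -3.78 and -3.74, with 1 of the 5 P3 samples well above background (3.50 ± 0.53, SE, adjusted p = 0.000309), and Cspg4 was at least 1.53-fold higher (adjusted p = 0.00661). Lum and Dpt were at background in all 8 samples, whereas Dcn and Scara5 were well above it in all 8. The changes of Dcn and Scara5 were 1.32 (adjusted p = 0.238) and 0.55 (adjusted p = 0.334). Thy1 had a change of 4.35 (adjusted p = 0.0211), Pdgfra of 2.21 (adjusted p = 0.0449) and Pi16 of -0.07 (adjusted p = 0.935). The part of these markers in the matrix results was not tested.

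The P3 to P6 change in K-LM was set against those of the other routes (3 P3 and 4 P6 samples of T-LM, 2 and 5 of KPT). The difference from T-LM passed limma's test for 659 of 22411 probes (2.94%) and that from KPT for 244 (1.09%). The K-LM change was the higher in 24.1% and 51.6% of these, but in 34.5% of the calls against T-LM with the percentile over all probes and in 61.9% of those against KPT with the deposited values. Without K-LM P6 replicate 2 the count against T-LM was 405, and without K-LM P6 replicate 1 that against KPT was 149. Every P6 sample of the other routes had an array on the earlier slides, so the late slide term bears on these differences too.

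Of 18 acute phase genes tested across routes, 8 differed from T-LM, all with the higher change in K-LM, and 12 differed from KPT. The shares over all probes were 2.94% and 1.09%. Serpina3n changed by -0.80 (adjusted p = 0.211) in T-LM and by -0.74 (adjusted p = 0.377) in KPT, and its change in K-LM exceeded them by 7.64 ± 0.63 (SE, adjusted p = 1.69e-08) and 7.58 ± 0.63 (SE, adjusted p = 2.67e-08). Serpina3f changed by -0.17 (adjusted p = 0.790) in T-LM and by -2.55 (adjusted p = 0.000418) in KPT, with differences of 3.43 ± 0.52 (SE, adjusted p = 0.000111) and 5.80 ± 0.53 (SE, adjusted p = 1.09e-07). The K-LM change of Saa2 exceeded those of T-LM and KPT by 4.67 ± 0.57 (SE, adjusted p = 4.75e-06) and 4.83 ± 0.57 (SE, adjusted p = 8.38e-06), and that of Lrg1 by 3.01 ± 0.43 (SE, adjusted p = 4.23e-05) and 3.52 ± 0.43 (SE, adjusted p = 1.4e-05). Zbtb16 differed by 7.05 ± 0.41 (SE, adjusted p = 7.67e-11) and 5.51 ± 0.42 (SE, adjusted p = 8.47e-09). In Saa1, Saa3 and Hp the difference from KPT passed, at 3.51 ± 0.58 (SE, adjusted p = 0.000671), 4.19 ± 0.77 (SE, adjusted p = 0.00240) and 3.35 ± 0.71 (SE, adjusted p = 0.00807). That from T-LM did not, at 1.36 ± 0.57 (SE, adjusted p = 0.191), 0.91 ± 0.77 (SE, adjusted p = 0.590) and 0.27 ± 0.71 (SE, adjusted p = 0.891).

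In complement 5 of 16 genes tested across routes differed from T-LM, 3 with the higher and 2 with the lower change in K-LM. The list medians were 0.89 in K-LM and 0.71 in T-LM, and 3 genes differed from KPT. C3 exceeded both, by 2.17 ± 0.51 (SE, adjusted p = 0.00938) and 2.64 ± 0.51 (SE, adjusted p = 0.00404), and Cfb by 2.57 ± 0.52 (SE, adjusted p = 0.00239) and 5.26 ± 0.52 (SE, adjusted p = 5.05e-07). Over all probes 2.94% differed from T-LM, and the K-LM change was the higher in 24.1% of these. The matrix and chemokine lists held differences from T-LM in which the K-LM change was mostly the lower, as it was over all probes. In the matrix proteases and inhibitors 8 of 27 genes tested across routes differed from T-LM, all 8 with the lower change in K-LM. In the chemokines and myeloid growth factors 9 of 24 differed, again all lower in K-LM (list medians of 0.14 in K-LM and 1.81 in T-LM), and 5 of 15 leukocyte markers were also lower in K-LM (medians of 0.02 and 1.97), whose part in the chemokine difference was not tested. In the matrix glycoproteins and proteoglycans 5 of 31 differed, 2 higher and 3 lower (medians of 1.50 and 2.70). For Mgp, Socs3 and Tgfbr2 no difference from T-LM passed. Mgp changed by 5.66 (adjusted p = 0.000265) in T-LM, a difference of 1.07 ± 1.53 (SE, adjusted p = 0.774), Socs3 by 2.92 (adjusted p = 3.17e-06), a difference of -0.56 ± 0.56 (SE, adjusted p = 0.654), and Tgfbr2 by 5.01 (adjusted p = 5.8e-09), a difference of -0.78 ± 0.64 (SE, adjusted p = 0.572). The change of Xlr4a lay below those of T-LM and KPT, by differences of -3.81 ± 0.50 (SE, adjusted p = 1.55e-05) and -4.55 ± 0.50 (SE, adjusted p = 2.81e-06). That of Ccn1 also lay below them, by differences of -2.46 ± 0.57 (SE, adjusted p = 0.00833) and -2.64 ± 0.57 (SE, adjusted p = 0.00979). Krt7, at background in K-LM, rose by 5.99 (adjusted p = 1.25e-12) in T-LM, a difference of -4.41 ± 0.46 (SE, adjusted p = 5.33e-07).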

How the data were processed

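Total RNA was labelled with a single dye and hybridised to Agilent mouse arrays by the authors. The deposited scanner files give, per spot, the raw median intensity, the local background and a processed intensity that Feature Extraction (11.0.1.1 on the earlier slides, 12.0.2.2 on the late slide) had background-subtracted. The authors also deposited a table of log2 values, which matched the quantile-normalized log2 raw median signal to within 0.105. The genome build behind the array design was not given in the sources used here.

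Of 62976 spots per array, 3671 controls were left out. Spots that the scanner software marked as outliers were dropped, except 1567 over all arrays whose probe had no other spot. The rest were averaged to 55681 probes, of which 28026 matched a symbol in RefSeq (GRCm38.p6). Levels are log2 processed signals minus the 75th percentile of the array over the 12218 probes well above background on all arrays. An array has no read depth, and the number of samples limits the precision.

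Probes well above background on at least 2 of the 26 arrays of the fit (K-LM P2 to P6, P0 and KPT P6 replicates 1, 2 and 4) were fitted with limma 3.58.1 (R 4.3.3, statmod 1.5.0), with 1 term for the late slide and RNA sample as a random block (correlation 0.6732). Tests were 2-sided with Benjamini-Hochberg adjusted p over all tested probes, and 0.01 or less was called, the threshold of the study. The difference between routes was fitted likewise on P3 and P6 of all 3 routes with P0. The median SE of the P3 to P6 change was 0.29. On simulated data for the P3 to P6 comparison (22331 probes, 50 changed of each size) 16% of rises of 1, 78% of rises of 2, 92% of rises of 3 and 80% of falls of 2 on the log2 scale were called, and no unchanged probe. The simulated noise was normal and held no difference in the index between P3 and P6. These shares therefore do not bear on calls that go with the index.

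A bound ("at least") is the mean of the bright group over the mean, in the dim group, of the higher of the lowest passing signal and the signal of the probe on each array, and the smaller value with or without the late slide difference was taken. Named genes were the 15 largest rises and 15 largest falls among called probes with a symbol (the brightest of a gene) whose P3 and P6 samples did not overlap with or without the late slide difference subtracted, every called list member, and Saa2 and Cfb. Results for 1 of the 15 rises are not reported here. The samples compared and the gene lists were chosen with earlier results of these data known. The ribosomal protein list left out the kinases that its name pattern would take in. The alternatives were other scalings (percentile over all probes, normexp with an offset of 50 on raw median signals, since no mean signal was used, and the deposited values), filters, a floor, handling of the slide, the index as a covariate, variance settings, a replicate block and omission of single samples. Leaving out P3 replicates 4 and 5 together was added after the data had been seen.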

Additional observations from a re-analysis of the deposited data

Results flagged for a closer look

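Of the 107 named genes, 5 had 1 P3 sample that stood apart from the other 4 by Dixon's criterion, about as many as the 1 in 20 that chance gives. Sema3c had a level of -6.53 in P3 replicate 4. Orm2 had a level of -2.18 in P3 replicate 1. Col4a2 had a level of -6.12 in P3 replicate 3. Efemp1 had a level of -3.49 in P3 replicate 1. Mmp2 had a level of -4.14 in P3 replicate 3. The gap to the nearest of the other samples exceeded 0.71 of the whole range, the critical value for 5 samples, in each case.

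The P3 to P6 change in K-LM differed from that in T-LM for 25 named genes and from that in KPT for 31, by limma's test of the difference at an adjusted p of 0.01 or less. In log2 units, the K-LM change minus the T-LM change was above 0 for Serpina3n 7.64, Serpina3m 6.93, Zbtb16 7.05, Cfb 2.57, Slc10a6 4.32, Steap4 3.20, Serpina3c 4.22, Saa2 4.67, Serpina3f 3.43, Serpina3i 3.52, Lrg1 3.01, Il6ra 2.17, C2 2.06, C3 2.17, Fbln1 1.88, Efemp1 1.83 and Gbp5 2.37. It was below 0 for Xlr4a -3.81, Prr32 -3.41, Xlr4b -2.87, Nppb -2.36, Ccn1 -2.46, Gm36028 -2.70, Krt7 -4.41 and Lamp3 -1.01. The K-LM change minus the KPT change was above 0 for Serpina3n 7.58, Serpina3m 7.02, Zbtb16 5.51, C4b 3.63, Cfb 5.26, Slc10a6 5.47, Steap4 5.19, Sema3c 4.69, Rspo3 4.69, Serpina3c 5.30, Saa1 3.51, Saa2 4.83, Saa3 4.19, Serpina3f 5.80, Serpina3i 6.04, Hp 3.35, Lrg1 3.52, C3 2.64, Krt20 2.85, Stat2 1.94, Gbp2 2.34, Gbp5 3.02, Samsn1 2.98 and Pcbp3 3.23. It was below 0 for Xlr4a -4.55, Cavin4 -3.65, Prr32 -2.93, Xlr4b -3.64, Ccn1 -2.64, Ces2g -1.55 and Gm36028 -1.79. Fitted values of genes at background in a group of samples are not bounds.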

How the results depend on the processing

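No alternative turned the direction of a named gene, and 25 of the 107 named genes were called in every one of the 30 alternatives that tested them. The count of 778 probes called from P3 to P6 was 318 with no filter on dim probes, 2722 with no late slide term, 2319 with the slide as a random block, 180 and 243 with the late slide term taken from P0 only or from KPT P6 only, 398 on the K-LM P3 and P6 arrays alone without the term, 107 with the index as a covariate and 283 without P3 replicates 4 and 5. Leaving out 1 sample gave 223 to 1851. With a replicate block it was 328, and 65 of the 107 named genes were called. Samples of the same number deviated together with correlations of 0.22, 0.01 and 0.09, so the numbers were not taken as pairs. The late slide comparison called 7 probes, but 187 with the deposited values and 26318 of 55681 with no filter, and 0 to 383 when 1 RNA was left out (383 without KPT P6 replicate 4). Where it called 0 by limma, 3523 to 4096 probes had an unadjusted p under 0.05. Leaving out 1 K-LM sample gave 405 to 813 for the difference from T-LM and 149 to 298 for that from KPT. In the other alternatives these counts were within 1.5 times the values reported. The cause of these shifts was not tested, apart from the fewer or more probes tested under the filters. Genes near background have no reliable size of change.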
